A study of Homo sapiens with 6 samples.

Results

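Hemidesmosome and laminin-332 genes encode the complex that fastens basal epithelial cells to the basement membrane. They were followed in TE-1, a human cell line from an oesophageal squamous cell carcinoma, after knockdown of EIF3C, a subunit of the translation initiation factor eIF3. The 8 genes are ITGA6, ITGB4, COL17A1, DST, PLEC, LAMA3, LAMB3 and CD151. A gene was measured where an array probe set carried its symbol and no other, and its brightest probe set by mean over the 6 arrays stood for it. Of the 8 genes, 6 had such probe sets, 27 in all among 49293 human probe sets. COL17A1 and LAMA3 were not analysed here, since the platform annotation used here names no probe set for them. All 6 measured genes passed the filter on low signals, among 13599 of 18132 genes.

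A TE-1 clone with stable knockdown of EIF3C was compared with the parental TE-1 line as control, with 3 Affymetrix arrays each. Both were grown in the same medium with 10% serum. EIF3C was read by 5 probe sets, all shared with the near-identical EIF3CL. The brightest of them had a log2 signal of 8.44 ± 0.04 in knockdown cells and 10.62 ± 0.06 in control cells (SD, n = 3 each), which leaves 22.1%. The knockdown arrays share 1 clone, and the labels describe neither a further clone nor cells with a control construct, so differences between a clone and its parental line cannot be told apart from the knockdown. The labels call the arrays biological replicates without saying that they came from separate cultures, and p-values cover no more than the spread between arrays, which may be of technical origin.

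A hemidesmosome is a plaque at the base of an epithelial cell. Its receptor is integrin alpha6 beta4, encoded by ITGA6 and ITGB4, which binds laminin-332 in the basement membrane. Laminin-332 is a trimeric protein whose chains include those encoded by LAMA3 and LAMB3. Inside the cell the plakins plectin (PLEC) and BPAG1 (DST) tie the integrin to keratin filaments. Collagen XVII (COL17A1) spans the membrane beside the integrin, and the tetraspanin CD151 associates with laminin-binding integrins. In stratified epithelia such as the oesophagus the structure belongs to the basal layer, and its loss causes blistering.

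The receptor genes were lower in knockdown cells, ITGA6 by more than 2-fold and ITGB4 by less. LAMB3 was slightly lower. CD151 and DST were slightly higher on their brightest probe sets, and PLEC was not called. On 5 further probe sets DST rose by more, between 0.49 and 0.67. Of the 6 genes, 3 were called lower and 2 higher at an adjusted p under 0.05 (limma with Benjamini-Hochberg adjustment over all genes tested). Over all genes the share called was 66.5%, with 34.1% lower and 32.4% higher, so a call by itself is common in this comparison. At least 2-fold changes were rarer, at 4.82% of all genes and 2.22% for falls, and ITGA6 was the member that reached that size. The median log2 fold change was -0.08 over the 6 genes and -0.03 over all genes tested, and the median size was 0.20 against 0.23.

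**Figure D1:**
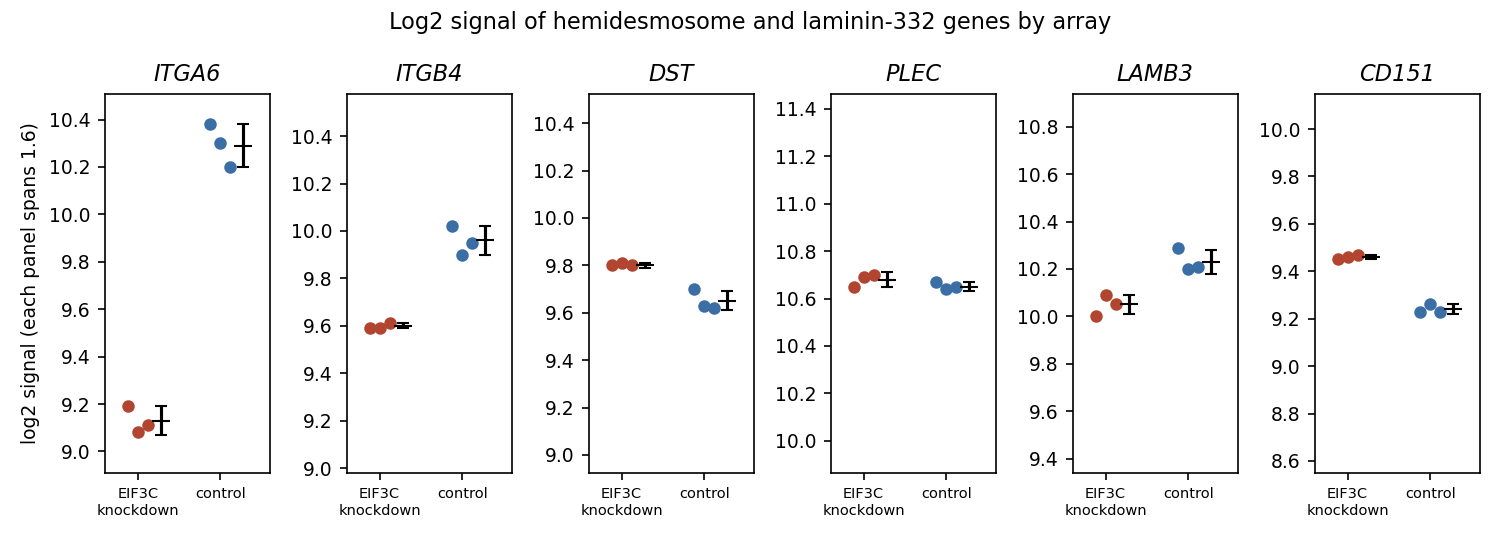
Log2 signal of the 6 measured genes on each array, EIF3C knockdown in red and control in blue, with the mean and SD in black (n = 3 arrays each); the axes of the panels cover equal spans. ITGA6 lies at 9.08 to 9.19 in knockdown and at 10.20 to 10.38 in control, and PLEC is the gene whose groups overlap.

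ITGA6, the alpha chain of the hemidesmosome integrin, had log2 signals of 9.19, 9.08 and 9.11 in knockdown cells, against 10.38, 10.30 and 10.20 in control cells. Every knockdown array lay at least 1 log2 unit below every control array. The means were 9.13 ± 0.06 in knockdown cells and 10.29 ± 0.09 in control cells (SD, n = 3 each), and the log2 fold change was -1.16 (SE 0.04, 95% interval -1.25 to -1.07, adjusted p = 2.34e-13). The knockdown signal was 44.7% of control. Of all genes tested, 2.95% changed more in either direction. In arrays of whole cultures, fewer cells that express a gene and less RNA per cell cannot be told apart. The other probe sets of ITGA6 gave -1.33 and -1.01, so 3 of 3 were called lower in the fit over all human probe sets. In that fit 48.2% of probe sets were called, 24.1% lower and 24.1% higher.

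The start sites of ITGA6 are shown because it had the largest change among these genes. The RefSeq promoter table for GRCh38.p14 gives 300 bases per start, 250 before it and 50 after it. From it 10 windows of 5 of the 8 genes were used here. The windows of ITGA6 lie on the plus strand at chr2:172427086-172427385 and chr2:172427336-172427635, and they overlap at their ends. Capitals mark the E-box letters CAGGTG or CACCTG, each the reverse complement of the other, to which repressors such as SNAI2 are known to bind.
ITGA6, start 1: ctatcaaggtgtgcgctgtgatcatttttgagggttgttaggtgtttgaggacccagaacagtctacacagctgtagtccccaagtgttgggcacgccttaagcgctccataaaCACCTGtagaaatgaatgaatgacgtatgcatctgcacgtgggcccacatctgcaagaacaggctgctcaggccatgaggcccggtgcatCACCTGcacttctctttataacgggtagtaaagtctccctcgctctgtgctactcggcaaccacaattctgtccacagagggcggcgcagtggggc
ITGA6, start 2: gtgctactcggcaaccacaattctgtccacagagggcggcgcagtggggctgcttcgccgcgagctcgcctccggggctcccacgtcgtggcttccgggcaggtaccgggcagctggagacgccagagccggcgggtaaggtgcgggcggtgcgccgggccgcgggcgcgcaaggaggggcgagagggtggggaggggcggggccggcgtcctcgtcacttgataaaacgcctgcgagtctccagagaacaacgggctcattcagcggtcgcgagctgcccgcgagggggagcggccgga
The first window holds 2 E-box matches, which begin at -136 and -46 from the start, and a TATAAA or TTTATA match that begins at -32. LAMB3 also holds an E-box match, in its window for start 1, where it begins at -218. The second window of ITGA6 has no E-box match, a GC content of 72.0% and 3 matches to the GC box, GGGCGG or CCGCCC. Among 35116 windows of this length, 20.6% hold an E-box match, 11.5% a TATA match and 45.0% a GC box match. SNAI2 had signals of 8.24, 8.18 and 8.09 in knockdown cells, against 6.96, 7.0 and 6.74 in control cells, and rose by 1.27 on the log2 scale (adjusted p = 2.57e-11). A match is a string of letters, and binding was not measured. Whether SNAI2 has a part in the change of ITGA6 was not tested.

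ITGB4, the beta chain that pairs with the ITGA6 product and reaches into the plaque, had signals of 9.59, 9.59 and 9.61 in knockdown cells, against 10.02, 9.90 and 9.95 in control cells. The groups did not overlap, and the knockdown arrays were closer to each other than the control arrays. Means were 9.60 ± 0.01 in knockdown cells and 9.96 ± 0.06 in control cells (SD, n = 3 each), with a log2 fold change of -0.36 (SE 0.03, 95% interval -0.43 to -0.29, adjusted p = 4.83e-08). That leaves 77.8% of the control signal. All 8 probe sets of ITGB4 were called lower, with changes between -0.36 and -0.21. Of all genes tested, 33.0% changed more.

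Both chains of the receptor were lower, with a larger change for the alpha chain. The change of ITGA6 minus that of ITGB4 was -0.80 on the log2 scale, and their intervals do not overlap. Taken array by array, the difference of the log2 signals was -0.40, -0.50 and -0.50 in knockdown cells, against 0.35, 0.40 and 0.25 in control cells. An exact two-sided permutation test over the 6 arrays gave p = 0.1, the smallest that 3 arrays against 3 allow, so the test could not pass a threshold of 0.05. Within the control group, replicate 1 had the highest signal on 2 of 3 probe sets of ITGA6 and on 7 of 8 of ITGB4.

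**Figure D2:**
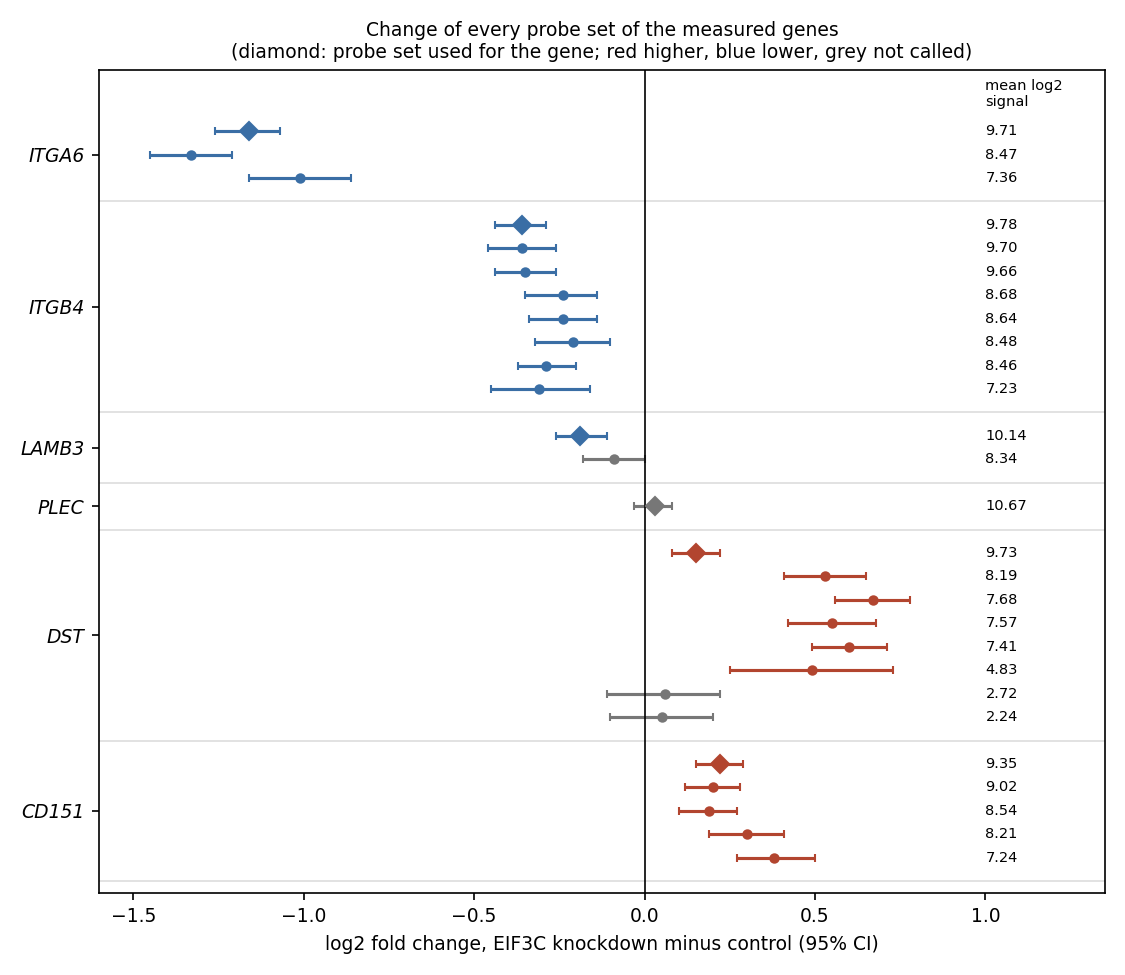
Log2 fold change, EIF3C knockdown minus control, of all 27 probe sets of the 6 genes with 95% intervals, from the fit over 49293 human probe sets; the numbers at the right are mean log2 signals over the 6 arrays. All 3 probe sets of ITGA6 and all 8 of ITGB4 lie left of 0, all 5 of CD151 lie right of it, and DST spreads from 0.05 to 0.67.

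CD151, the tetraspanin that associates with laminin-binding integrins, had signals of 9.45, 9.46 and 9.47 in knockdown cells, against 9.23, 9.26 and 9.23 in control cells. The knockdown arrays were all higher. The log2 fold change was 0.22 (SE 0.03, 95% interval 0.16 to 0.29, adjusted p = 7.25e-06), from means of 9.46 ± 0.01 in knockdown cells and 9.24 ± 0.02 in control cells (SD, n = 3 each). All 5 probe sets were called higher, by 0.19 to 0.38, where 24.1% of all human probe sets were called higher. For scale, the 85 array control probe sets to non-human sequences differed between the groups by -0.22 to 0.20, so the change on the brightest probe set has the size of the largest difference among them, and those of 0.30 and 0.38 on 2 further probe sets are larger.

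DST encodes BPAG1, a plakin that binds keratin filaments in its epithelial form and other cytoskeletal filaments in other forms. Its brightest probe set read 9.80, 9.81 and 9.80 in knockdown cells, against 9.70, 9.63 and 9.62 in control cells. The groups did not overlap, with means of 9.80 ± 0.01 in knockdown cells and 9.65 ± 0.04 in control cells (SD, n = 3 each). The log2 fold change of 0.15 (SE 0.03, 95% interval 0.09 to 0.22, adjusted p = 0.000324) lay within the range of the non-human controls. On 5 further probe sets the rise was larger, between 0.49 and 0.67. One of these read 7.97, 8.01 and 8.07 in knockdown cells, against 7.39, 7.29 and 7.36 in control cells, a rise of 0.67 (adjusted p = 2.77e-08). The remaining 2 probe sets had mean signals of 2.24 and 2.72, below 4.63, the lowest gene mean kept for testing, and were not called. Averaged over its 8 probe sets, DST rose by 0.39. Which transcript forms each probe set reads is not given in the sources used here.

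PLEC encodes plectin, the plakin that binds the tail of integrin beta4 and keratins. It had 1 probe set, with signals of 10.65, 10.69 and 10.70 in knockdown cells, against 10.67, 10.64 and 10.65 in control cells. The groups overlapped, with means of 10.68 ± 0.03 in knockdown cells and 10.65 ± 0.02 in control cells (SD, n = 3 each). The log2 fold change was 0.03 with a 95% interval of -0.03 to 0.08 (adjusted p = 0.382), and it turned to -0.02 with quantile normalization.

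LAMB3, the beta3 chain of laminin-332, is the measured part of the ligand. Its signals were 10.00, 10.09 and 10.05 in knockdown cells, against 10.29, 10.20 and 10.21 in control cells. Means were 10.05 ± 0.04 in knockdown cells and 10.23 ± 0.05 in control cells (SD, n = 3 each). The knockdown arrays were all lower, by a log2 fold change of -0.19 (SE 0.03, 95% interval -0.25 to -0.12, adjusted p = 7.87e-05). This is 87.9% of the control signal and within the range of the non-human controls. The other probe set of LAMB3 gave -0.09 and was not called (adjusted p = 0.104), although its 3 knockdown arrays also lay below the 3 control arrays.

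**Figure D3:**
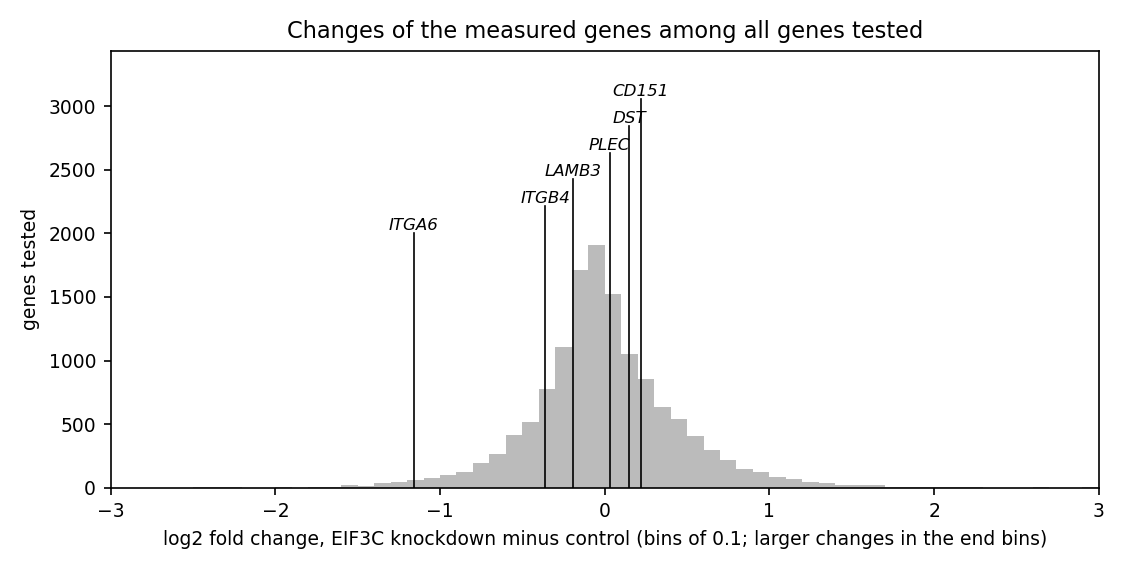
Number of genes tested by log2 fold change, EIF3C knockdown minus control, in bins of 0.1, with the 6 measured genes marked by lines. By their brightest probe sets, ITGA6, at -1.16, stands in the lower tail, and the other 5 genes lie between -0.36 and 0.22, in the body of the distribution.

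Across the 6 genes the groups did not overlap for 5, where 70.3% of all genes tested had groups that did not overlap. The gene values of ITGA6, ITGB4 and LAMB3 lay below all control arrays on all 3 knockdown arrays, as did 36.7% of genes tested, and those of DST and CD151 lay above them, as did 33.6%. The falls were in the receptor and the ligand chain, and the rises in a plakin and the tetraspanin. The other plakin gene, PLEC, was not called. The changes of LAMB3 and of the brightest DST probe set lay within the range of the non-human controls. This grouping by part was not tested.

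The promoter windows of LAMB3 and DST are shown because they hold the AP-1 letters TGACTCA or TGAGTCA, each the reverse complement of the other. AP-1 factors, dimers of FOS and JUN proteins, are known regulators of laminin-332 chain genes in keratinocytes. Capitals mark the AP-1 matches. The LAMB3 window is the third listed, on the minus strand at chr1:209651325-209651624, and that of DST is the first listed, on the minus strand at chr6:56954781-56955080.
LAMB3, start 3: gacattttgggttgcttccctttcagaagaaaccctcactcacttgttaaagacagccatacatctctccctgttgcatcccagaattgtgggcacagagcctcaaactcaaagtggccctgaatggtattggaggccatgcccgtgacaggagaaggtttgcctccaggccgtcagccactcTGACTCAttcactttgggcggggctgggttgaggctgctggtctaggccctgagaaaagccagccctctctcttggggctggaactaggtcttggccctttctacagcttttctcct
DST, start 1: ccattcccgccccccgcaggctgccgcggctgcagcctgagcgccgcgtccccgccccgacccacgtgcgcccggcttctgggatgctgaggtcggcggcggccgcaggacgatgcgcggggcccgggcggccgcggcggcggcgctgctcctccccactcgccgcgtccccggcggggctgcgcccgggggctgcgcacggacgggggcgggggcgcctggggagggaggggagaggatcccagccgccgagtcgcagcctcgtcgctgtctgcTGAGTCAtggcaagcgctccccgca
In LAMB3 the match begins at -67 from the start, and in DST at 26, inside the transcribed stretch. LAMA3, without a value here, has 2 matches, which begin at -125 and -69, the second sharing bases with an E-box match that begins at -73. The windows of ITGA6 and COL17A1 and the other windows of LAMB3 and DST hold no AP-1 match. Of 35116 windows, 4.95% hold one. Of the measured genes with a match, LAMB3 fell and DST rose.

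Other genes around the hemidesmosome were taken from 5 lists, chosen with earlier results of these data known. The counts called in each list stand beside 66.5% called over all genes tested, with 34.1% lower and 32.4% higher. No list was tested against these shares. The widest, other laminin chains and basement membrane genes, had 16 genes tested, of which 9 were called lower and 3 higher (median -0.22). COL4A1, a chain of the type IV collagen network, had signals of 9.77, 9.78 and 9.74 in knockdown cells, against 10.71, 10.66 and 10.66 in control cells, and fell by 0.91 (adjusted p = 3.23e-14). COL4A5, a further type IV chain, fell by 0.78. LAMC1, the gamma chain of most laminins, had signals of 10.72, 10.75 and 10.74 in knockdown cells, against 11.44, 11.40 and 11.39 in control cells, and fell by 0.67. LAMA4, an alpha chain known from vessel basement membranes, rose by 1.32 on its brightest probe set, with 2 of 4 probe sets called, and had signals of 7.31, 7.17 and 7.36 in knockdown cells, against 6.07, 5.82 and 6.0 in control cells. COL7A1, the anchoring fibril collagen beneath hemidesmosomes, is named here after its values were seen. It fell by 0.31 (adjusted p = 3.53e-06).

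Among other laminin receptors and proteases that process laminin-332, 4 of 9 genes tested were higher and 4 lower (median -0.08). SDC4, the matrix co-receptor syndecan-4, had signals of 10.61, 10.61 and 10.62 in knockdown cells, against 11.94, 11.86 and 11.81 in control cells, and fell by 1.26. MMP14, a membrane metalloproteinase known to cleave laminin-332, also fell by 1.26, with signals of 7.58, 7.46 and 7.54 in knockdown cells, against 8.79, 8.84 and 8.72 in control cells. BMP1, a protease that trims laminin-332 chains, fell by 0.71. The receptor subunit ITGA2, which pairs with integrin beta1 and binds collagen and laminin, rose by 0.81.

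ITGA3, the alpha chain of the other laminin-332 integrin, alpha3 beta1, is named here after its values were seen. It had signals of 9.39, 9.42 and 9.41 in knockdown cells, against 8.85, 8.77 and 8.71 in control cells. ITGA3 rose by 0.63 (adjusted p = 2.24e-10) on a scale where ITGA6 fell by 1.16. The opposite directions of this pair are a description, since ITGA3 was singled out with its values known.

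**Figure D4:**
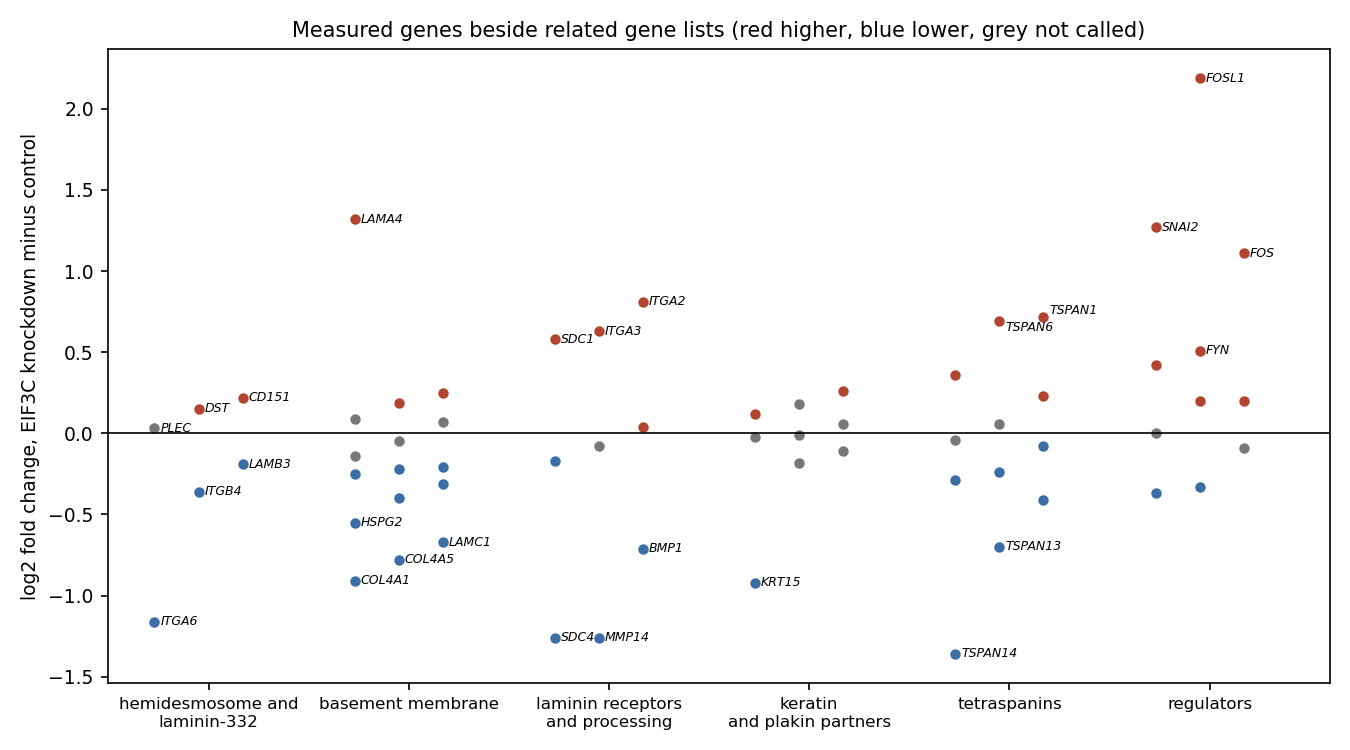
Log2 fold change, EIF3C knockdown minus control, of the 6 measured genes and of 5 lists of related genes (1 point per gene tested; red called higher, blue called lower, grey not called). ITGA6 and ITGA3 lie on opposite sides of 0, at -1.16 and 0.63, and each list has points on both sides of 0.

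Among keratins and plakin partners, 2 of 9 genes tested were higher and 1 lower (median -0.01). KRT15, a basal keratin, fell by 0.92, with signals of 7.61, 7.63 and 7.65 in knockdown cells, against 8.59, 8.59 and 8.47 in control cells. KRT8 and KRT18, the keratin pair of simple epithelia, rose by 0.26 and 0.12. The basal pair KRT5 and KRT14, to which plectin and BPAG1 anchor in stratified epithelium, had low signals on its probe sets. KRT5 averaged 6.09 ± 0.12 in knockdown cells and 5.91 ± 0.11 in control cells (SD, n = 3 each). KRT14 averaged 5.67 ± 0.07 in knockdown cells and 5.85 ± 0.21 in control cells (SD, n = 3 each). Neither gene was called by its brightest probe set. The 2 probe sets of KRT5 changed by 0.18 and 0.43, and 1 of them was called higher in the fit over all human probe sets.

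Tetraspanins other than CD151 moved both ways, with 4 of 12 higher and 6 lower (median -0.06). TSPAN14 had signals of 9.80, 9.87 and 9.86 in knockdown cells, against 11.22, 11.21 and 11.20 in control cells, and fell by 1.36 (adjusted p = 1.99e-16). TSPAN13 fell by 0.70, and TSPAN1 and TSPAN6 rose by 0.72 and 0.69.

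Among transcription factors, kinases and receptors known to act on hemidesmosome genes or proteins, 7 of 11 were higher and 2 lower (median 0.20). Over all genes tested, 32.4% were called higher and 34.1% lower. The AP-1 subunit FOSL1 had signals of 9.77, 9.69 and 9.75 in knockdown cells, against 7.66, 7.47 and 7.49 in control cells. It rose by 2.19, and the related FOS by 1.11. FYN, a kinase known to phosphorylate integrin beta4, rose by 0.51. TP63, the regulator of basal epithelium, was not analysed here.

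By the distance between profiles over the 6 arrays, each centred on its control mean, the genes most like ITGA6 were TET1, RNF146, ALDH3B1, COQ2 and CYB561A3. Their root mean square distances were 0.027, 0.028, 0.032, 0.038 and 0.039 log2 units. Their log2 fold changes ran from -1.19 to -1.14, beside -1.16 for ITGA6. That closeness follows from how the genes were chosen and is not a separate result. Whether more genes lie this near to ITGA6 than to other genes was not tested.

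Array medians lay between 6.09 and 6.11. The epithelial markers EPCAM and CDH1 had mean signals of 12.10 and 11.44 in knockdown cells, against 11.89 and 11.21 in control cells. The squamous markers SOX2 and PKP1 had mean signals of 5.52 and 5.12 in knockdown cells, against 5.77 and 5.19 in control cells. EPCAM and CDH1 were called higher, by 0.21 and 0.23, and SOX2 was called lower, at -0.25. Of the 7 squamous epithelial markers tested, 2 were called higher, 1 lower and 4 not. Over all genes tested the shares were 32.4% higher and 34.1% lower. SFN, a further squamous marker, was bright, with a mean signal of 10.96 in control cells. It was not called, at a log2 fold change of 0.05 (limma, adjusted p = 0.108). KRT5 and KRT14, whose low signals are given above, were on the same list. Signals of different probe sets do not give the order of transcript levels and no detection calls were used, so these values do not settle which of the markers are expressed. TP63 and KRT6A were not analysed here. Of 15 markers of fibroblasts, leukocytes and endothelium, 8 lay below the filter and the 7 tested had means of 5.02 to 6.28. Linear signals were also summed over all measured genes of each list, those below the filter included, and the sums are given as log2. The sums of fibroblast markers were 7.14 to 7.27 in knockdown cells and 7.05 to 7.21 in control cells. Those of leukocyte markers were 6.90 to 7.01 in knockdown cells and 6.98 to 7.29 in control cells, and those of endothelial markers 7.74 to 7.76 in knockdown cells and 7.61 to 7.72 in control cells. The endothelial markers CDH5 and KDR were called, with changes of 0.46 and -0.26 at these dim signals, and their part in the results was not tested.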

How the data were processed

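The authors deposited 1 table of log2 signals with a column per array. MAS5 is named without a version, per the submitters' processing notes. How background was corrected and probes were summarised is not stated in the labels or the file. MAS5 signals are normally linear, whereas the range of the values (1.95 to 14.14) was read as log2. A log step or another summarisation that is not recorded must therefore lie behind the table, and every signal and fold given rests on that reading. Nearly equal array medians were taken as a sign of earlier scaling, so a shift shared by all genes cannot be measured. No detection calls were used here. Precision is limited by the number of arrays.

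Symbols came from the platform annotation (44988 probe sets with 1 symbol). The lowest 25% of genes by mean were left out. The 2 groups were compared in R 4.3.3 with limma 3.58.1 (lmFit, then eBayes with a trend on intensity, no covariates, Benjamini-Hochberg over all 13599 genes, threshold 0.05). All probe sets were also fitted without a filter. Arrays were grouped by their labels. From each list up to 4 called genes with the largest change were named, and the 5 genes nearest to the member with the largest change. The members and lists were chosen with earlier results of these data known. The fit was also tested on simulated data built on these 13599 genes, with 200 genes changed. There it recovered 50.8% of changes of 0.25 and 99.2% of changes of 1 (log2), and 3.20% of its calls were false. In the real comparison 66.5% of genes were called, so these rates need not hold for it. Promoter sequences come from RefSeq (GRCh38.p14). The alternatives were filters, normalizations, probe set rules, variance settings, array weights, a replicate block and each array left out.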

Additional observations from a re-analysis of the deposited data

How the results depend on the processing

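All 16 alternatives kept 3 of the 6 genes lower and 2 higher, with the same direction and call for ITGA6 (-1.22 to -1.12), ITGB4 (-0.42 to -0.29), LAMB3 (-0.23 to -0.14), DST (0.10 to 0.39) and CD151 (0.16 to 0.26). PLEC was called in none of them, with adjusted p from 0.244 to 0.681, and its change of 0.03 turned to -0.02 with quantile normalization. The change of DST depends on the probe sets used, 0.15 for the brightest and 0.39 for their mean. With the replicate number as a block, 2 genes were higher and 3 lower, ITGA6 stood at -1.16, and 9307 genes were called over the whole table, against 9037 without it. The labels do not say that the numbers mark shared batches. Deviations from the group means correlated by 0.07, 0.10 and 0.17 for same-numbered arrays, each array correlated best with its own number, and the numbers were not taken as pairs. Signals near the lower end, such as the 2 dimmest probe sets of DST, cannot show a change reliably, and the changes of the brightest probe sets of CD151 and LAMB3, about 0.2, are no larger than those of single non-human controls. On 2 further probe sets CD151 rose by 0.30 and 0.38, beyond the largest control difference of 0.22.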

Other observations

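Probe sets of some related genes disagreed in call or size. For LAMC1 the changes ran from -0.73 to 0, with 4 of 5 called lower. They ran from -0.78 to -0.05 for COL4A5 (2 of 3 called lower) and from -0.71 to -0.15 for BMP1 (3 of 5). All probe sets were called in the same direction for COL4A1 (-0.91 to -0.12), MMP14 (-1.26 to -0.31) and FOSL1 (0.52 to 2.19). LAMA4 ranged from -0.17 to 1.32 over 4 probe sets, of which 2 were called higher and 0 lower. COL4A6 was not called by its brightest probe set, at -0.14, while 2 of its 7 probe sets were called higher, up to 0.57. ERBIN, which encodes a partner of integrin beta4, was not called at 0.06, while 2 of its 5 probe sets were called lower, down to -0.35. TSPAN6, by contrast, was called higher on all 8 probe sets, by 0.46 to 0.70, where 24.1% of all human probe sets were called higher.

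The receptor kinase EGFR, whose signalling is known to loosen hemidesmosomes, averaged 9.90 ± 0.08 in knockdown cells and 9.90 ± 0.04 in control cells (SD, n = 3 each) on its brightest probe set, which was not called (adjusted p = 0.942). Of its 8 probe sets 1 was called lower, and they ranged from -0.28 to 0.05. The collagen-binding and laminin-binding chains ITGA2 and ITGA3 were called higher on all of their 2 and 3 probe sets.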
